A study of Apostichopus japonicus with 9 samples.

Results

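Intestines of the sea cucumber Apostichopus japonicus held for 48 h at 26 °C were compared with intestines held for 6 h at the same temperature, over the 156 microRNA (miRNA) names that the authors listed in both of their tables. These are 156 of the 409 names listed in either table. A name was listed where its pooled reads at that time were more than 2-fold from a control group, so the listing used the distance of each heat group from the control. A name listed above the control at 1 heat time and below it at the other must therefore differ between the heat times. Among such names were miR-493-3p, miR-3156-5p, miR-4417, miR-5106, miR-7471-5p, miR-5358b-5p and miR-2-3p, whose calls below follow in part from the listing. Small RNA was sequenced from 3 libraries at 48 h and 3 at 6 h, each from the intestine of 1 animal of 100 to 120 g under heat stress at 26 °C. The 3 control libraries came from animals under normal conditions. The labels name no temperature or sampling time for the control, no strain or age for any animal, and no agent or altered gene in any group. A 48 h animal differs from a 6 h animal in the time spent in warm water, and nothing in the labels gives the hour of the day or the feeding state at sampling.

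miRNAs are short RNAs that guide Argonaute proteins to partly matching messenger RNAs, whose translation and stability they reduce. Several families are shared between echinoderms, vertebrates and protostomes, among them let-7, which times development, and miR-10, which lies in the Hox gene cluster. In this sea cucumber warm water brings on aestivation, a summer dormancy in which the animal stops feeding and its gut shrinks. Most names in the tables were first given in other species and show only which known miRNA the authors matched. No sequences were used here.

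Each group has 1 pooled read count per miRNA and 1 mean level, in reads per M reads of a library (RPM; M for mega). The totals of the libraries, recovered from counts and means, were 57.2, 61.9 and 113 M reads at 48 h. At 6 h they were 54.4, 69.3 and 96.9 M, and in the control 91.6, 109 and 144.9 M. The smallest level of a library in either table was 20.01 RPM, or 1088 reads in the shallowest heat library at 20 RPM, so a listed 0 was read as under 20 RPM in every library of the group. The smallest pooled heat count above 0 was 1162 reads, with an exact 95% Poisson interval of 1096.1 to 1230.8 reads. That interval covers counting error only. Each group has 1 count and 1 mean per name, and a level for every library followed from them for 25 of the names with reads at both heat times. No test between the heat groups was run, and an exact two-sided permutation test of 3 against 3 libraries cannot go below p = 0.10. A name was called where the means were at least 2-fold apart, with 20 RPM in place of a listed 0. Such a ratio is a bound and is written "at least".

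Reads of 55 of the 156 names were listed at both heat times, of 11 at 48 h alone and of 14 at 6 h alone. The other 76 names had no listed reads at either heat time and cannot be compared between them. At 48 h 14 of the 156 names (8.97%) were at least 2-fold higher than at 6 h, with a median of 8.18-fold. In the other direction 26 names (16.7%) were at least 2-fold lower at 48 h, with a median of 4.81-fold. Among the 80 names with reads at either heat time these were 17.5% and 32.5%. By a stricter ratio, in which each library of the lower group that could be empty was set to 20 RPM, 13 names (8.33%) were higher and 19 (12.2%) lower. The median log2 ratio of 48 h over 6 h across the 55 names with reads at both times was -0.40, and 41 of them were lower at 48 h by any amount.

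**Figure D1:**
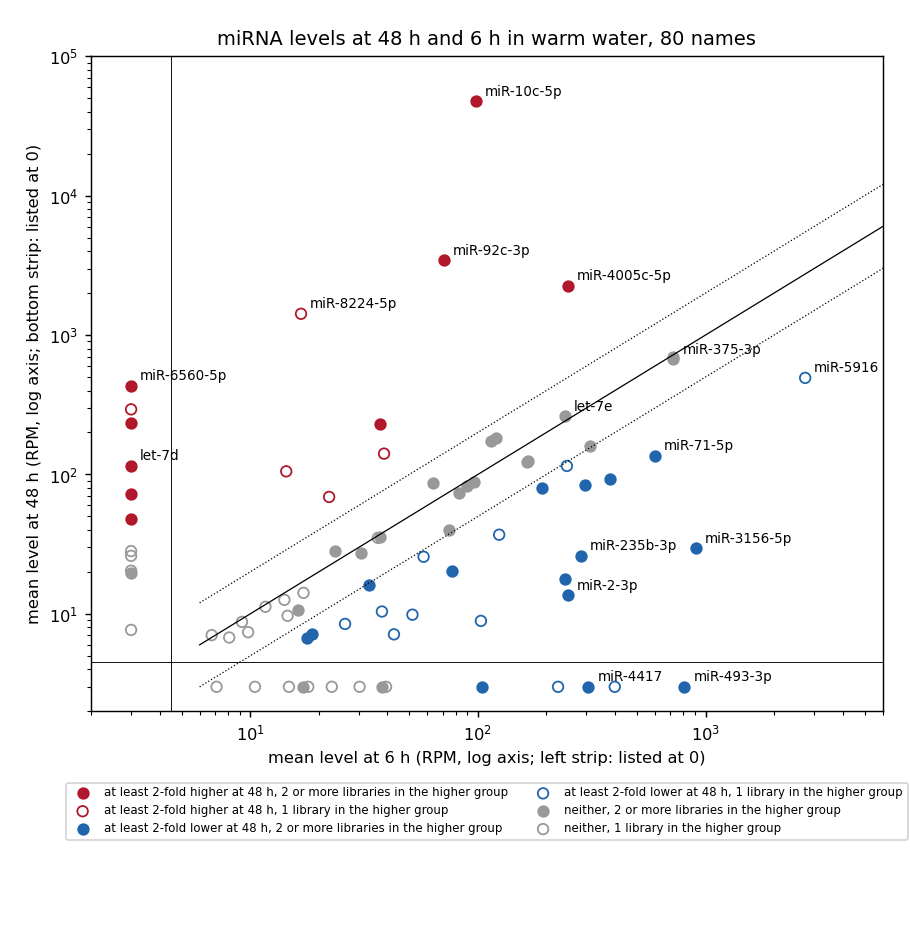
Mean level of each of the 80 names with reads at either heat time, at 48 h (vertical axis, RPM, log) against 6 h (horizontal axis, RPM, log); the outer strips hold names listed at 0, the solid line marks equal levels and the dotted lines 2-fold. Filled points had 2 or more libraries with reads in the higher group, and miR-92c-3p at 3433 and 70.9 RPM stands far above the lines while miR-493-3p lies in the strip of names listed at 0 at 48 h.

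The clearest contrast was in miR-92c-3p, which had reads in several libraries at each time. It belongs to the miR-25/92 family, whose vertebrate members are transcribed from clusters that act in cell growth. miR-92c-3p averaged 3433 RPM at 48 h, against 70.9 RPM at 6 h, 48.4-fold higher, with 29.1 RPM in the control. The 48 h library with the most held between 3807 and 6738 RPM, and the others averaged between 1781 and 3246 RPM. The 6 h library with the most held between 94.2 and 164 RPM. The groups therefore stood apart on their means whichever library held the most, and with 1 library left out of each group the ratio was at least 16.7. The counting interval of the ratio ran from 47.6 to 49.2.

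On group means, other relatives in the family did not follow it. miR-235b-3p, whose nematode namesake miR-235 belongs to the same family, averaged 26.2 RPM at 48 h, against 284 RPM at 6 h, 10.8-fold lower. Its 6 h library with the most held between 342 and 823 RPM, and the others averaged between 14.1 and 255 RPM. That range reaches below the 48 h mean, so the difference may rest on 1 library. Its control reads, 14.0 RPM on average, came from 1 library. miR-25 had no listed reads at 48 h and 7.12 RPM at 6 h from 1 library, too low to be compared, against 65.0 RPM in the control. The family thus had 1 name called higher and 1 called lower among 3, against 8.97% and 16.7% of all 156 names.

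For 6 names, miR-92c-3p included, the 2-fold difference held with 1 library left out of each group under every split of the reads that the columns allow. The others higher at 48 h were miR-6560-5p and let-7d, and those lower at 48 h were miR-493-3p, miR-4417 and miR-5106. These 5 rest on a listed 0 in the lower group, read as 20 RPM. Those lower at 48 h were listed below the control at 48 h and above it at 6 h, so their difference follows in part from the listing.

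let-7d, of the let-7 family, had 131 and 214 RPM in the 48 h libraries of 57.2 and 61.9 M reads and none in the deepest. It had none in any 6 h library. The 48 h mean of 115 RPM was at least 5.76-fold higher than at 6 h, and at least 3.29-fold with the library with the most left out. The control mean was 3375 RPM, of which 97.4 to 98.3% lay in 1 library, and the other control libraries averaged 88.4 to 141.6 RPM. miR-6560-5p averaged 433 RPM at 48 h, against none at 6 h, at least 21.6-fold higher. Between 1099 and 1116 RPM of it lay in the 113 M library, and the other 48 h libraries averaged 91.4 to 110 RPM.

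miR-493-3p, which in mammals comes from the imprinted Dlk1-Dio3 cluster, had no listed reads at 48 h and averaged 807 RPM at 6 h, at least 40.4-fold lower at 48 h. Its 6 h library with the most held between 851 and 2154 RPM, and the others averaged between 134 and 785 RPM. miR-4417, a name given in humans, had none at 48 h and 306 RPM at 6 h, at least 15.3-fold lower. The 6 h libraries of miR-4417 other than the highest averaged 98.5 to 240.05 RPM. miR-5106 had none at 48 h and 104 RPM at 6 h, at least 5.21-fold lower, and at least 2.43-fold with the library with the most left out. The control held 64.6 RPM of miR-493-3p, 76.6 RPM of miR-4417 and 22.5 RPM of miR-5106.

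**Figure D2:**
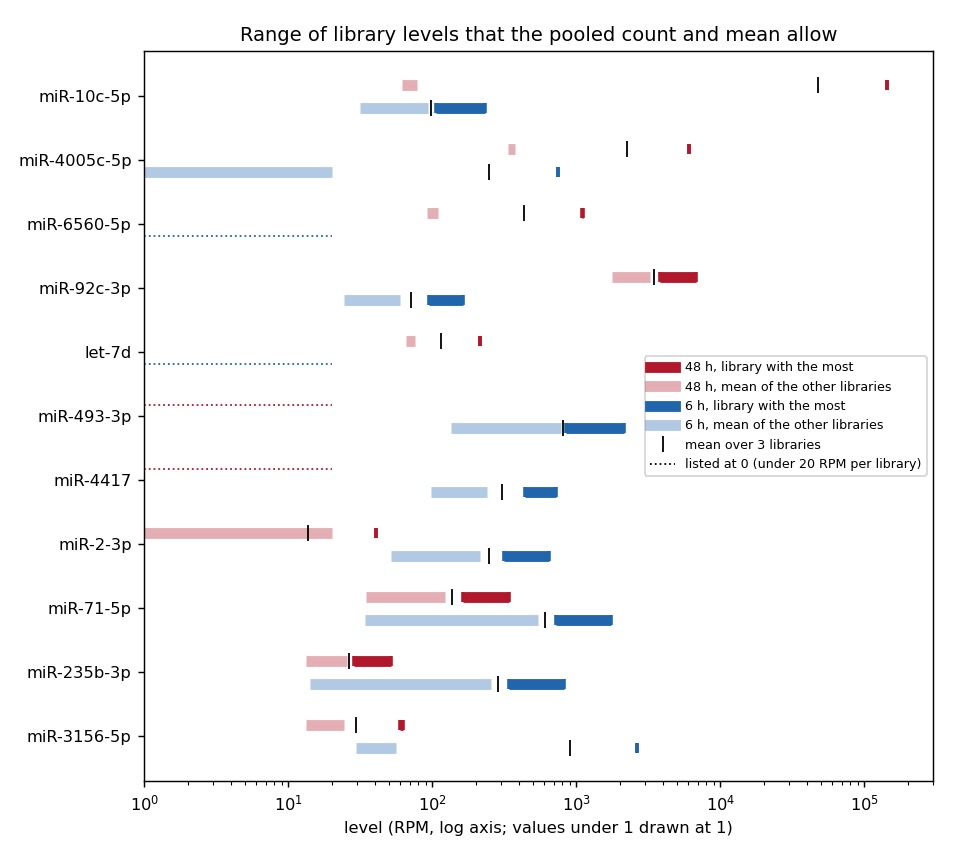
For 11 miRNAs, the range that the pooled count and the mean allow for the library with the most (dark) and for the mean of the other libraries (pale), at 48 h (red) and 6 h (blue), in RPM on a log axis; black ticks mark means over 3 libraries and dotted lines names listed at 0. The dark red mark of miR-10c-5p stands far right of its pale range of 62.0 to 77.7 RPM, while both red ranges of miR-92c-3p lie right of both blue ones.

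The highest mean of all belonged to miR-10c-5p, of the Hox-linked miR-10 family, and it was held by 1 animal. miR-10c-5p averaged 47665 RPM at 48 h, against 97.7 RPM at 6 h, 488-fold higher, with 127756 RPM in the control. The 113 M library at 48 h held between 142859 and 142870 RPM, 99.91% of the summed level. The other 48 h libraries averaged 62.0 to 77.7 RPM, below the 6 h mean, and without the 113 M library the ratio was at most 0.79. At 6 h the library with the most held between 106 and 231 RPM. So 5 of the 6 heat libraries held at most 231 RPM, and 1 stood above the control mean.

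The library with the most reads is known for 11 of the 14 names called higher at 48 h, and for 8 of them it was the same 113 M library. The same count was not made over all names. Of the 30 names with all 48 h reads in 1 library, called or not, 13 had them in the 113 M library. Of the 8 called names, 6 were under 2-fold without it even at the highest level the other libraries can have. They were miR-10c-5p, miR-8224-5p, miR-4005c-5p, miR-4194-3p, miR-8268-3p and miR-1791-5p. miR-8224-5p had 4260 RPM in that library and no listed reads in the other 48 h libraries, against 50.2 RPM in the 96.9 M library at 6 h, and its means of 1420 and 16.7 RPM were 84.9-fold apart. miR-4005c-5p, a name given in the tunicate Ciona, averaged 2254 RPM at 48 h, with 336 to 376 RPM on average outside the 113 M library, against 249 RPM at 6 h. Its 6 h reads all lay in the 54.4 M library at 746 RPM, and the ratio was 9.06 on the means and 17.03 on pooled counts over pooled totals. For the other 2 of the 8, miR-6560-5p and miR-1903, the remaining libraries could still average at least 2-fold above the 6 h level. Among the 26 names called lower at 48 h, the 6 h library with the most is known for 19. It was the 54.4, 69.3 and 96.9 M library for 9, 7 and 3 of them. Of these, 4, 3 and 2 were under 2-fold without that library by the same measure. Depth, animal and library cannot be told apart here, and their part in these ratios was not tested.

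miR-1903 averaged 230.1 RPM at 48 h, against 37.3 RPM at 6 h, 6.17-fold higher, with 127 to 149 RPM on average outside the 113 M library and 9.97-fold on pooled counts. miR-8476-5p averaged 233 RPM at 48 h, against none at 6 h, at least 11.7-fold higher. miR-599 averaged 72.5 RPM at 48 h, against none, at least 3.63-fold higher. Its least coefficient of variation over the 48 h libraries was 8.26%, which is a lower limit only. miR-9192 had 879 RPM in the 57.2 M library at 48 h and none elsewhere. miR-4295 had 84.4 and 60.3 RPM in the 57.2 and 61.9 M libraries at 48 h and none at 6 h, at least 2.41-fold higher on means and 1.84-fold on pooled counts, which ends its call.

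Names of invertebrate families were among those lower at 48 h. miR-71-5p, of a family absent from vertebrates that acts in lifespan and stress resistance in Caenorhabditis elegans, averaged 136 RPM at 48 h, against 601 RPM at 6 h, 4.41-fold lower, with 60.7 RPM in the control. Its 48 h library with the most held 163 to 339 RPM and its 6 h library with the most 725 to 1735 RPM. With each group's reads spread in the way most against the call and 1 library left out of each, the difference did not hold, so the libraries may overlap. miR-2-3p, whose family acts against cell death genes in Drosophila, had 40.8 RPM in the 113 M library at 48 h and none in the others, against a 6 h mean of 248 RPM. The means, 13.6 and 248 RPM, were 18.3-fold apart, and 9.23-fold with the empty 48 h libraries set to 20 RPM. miR-2-3p was listed below the control at 48 h and above it at 6 h, so its call follows in part from the listing. Its 6 h library with the most held between 317 and 642 RPM, and the others averaged between 51.7 and 214 RPM. With 1 library left out of each group the difference could be as low as 1.70-fold. miR-5126 had 53.8 RPM in 1 library at 48 h and none in the others, against a 6 h mean of 243 RPM. Its 6 h libraries other than the highest averaged 51.3 to 157 RPM.

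Further names lower at 48 h had reads in 2 or more libraries at both times. miR-1587 averaged 92.8 RPM at 48 h, against 380 RPM at 6 h, 4.09-fold lower. miR-3620-5p averaged 83.4 RPM at 48 h, against 296 RPM at 6 h, 3.54-fold lower, and miR-4466 averaged 80.3 RPM, against 192 RPM, 2.39-fold lower. The 6 h libraries other than the highest averaged 65.0 to 196 RPM of miR-1587 and 70.8 to 212 RPM of miR-3620-5p. For miR-4466 they averaged 61.6 to 151 RPM, at most 1.88-fold above the 48 h mean. Each range reaches below the 48 h mean of its name. These names were above their control means of 37.2, 40.9 and 44.1 RPM at both times. miR-2861 lay just inside the 2-fold limit at 16.0 RPM against 33.2 RPM, 2.07-fold lower, and was under it by pooled counts. miR-4488 lay just outside it, 1.94-fold lower, with 311.5 and 169 RPM in the 57.2 and 61.9 M libraries at 48 h and none in the deepest, against a 6 h mean of 310.9 RPM. On the higher side miR-4295, above, lay just inside and miR-2010-3p, at 1.52-fold, just outside.

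**Figure D3:**
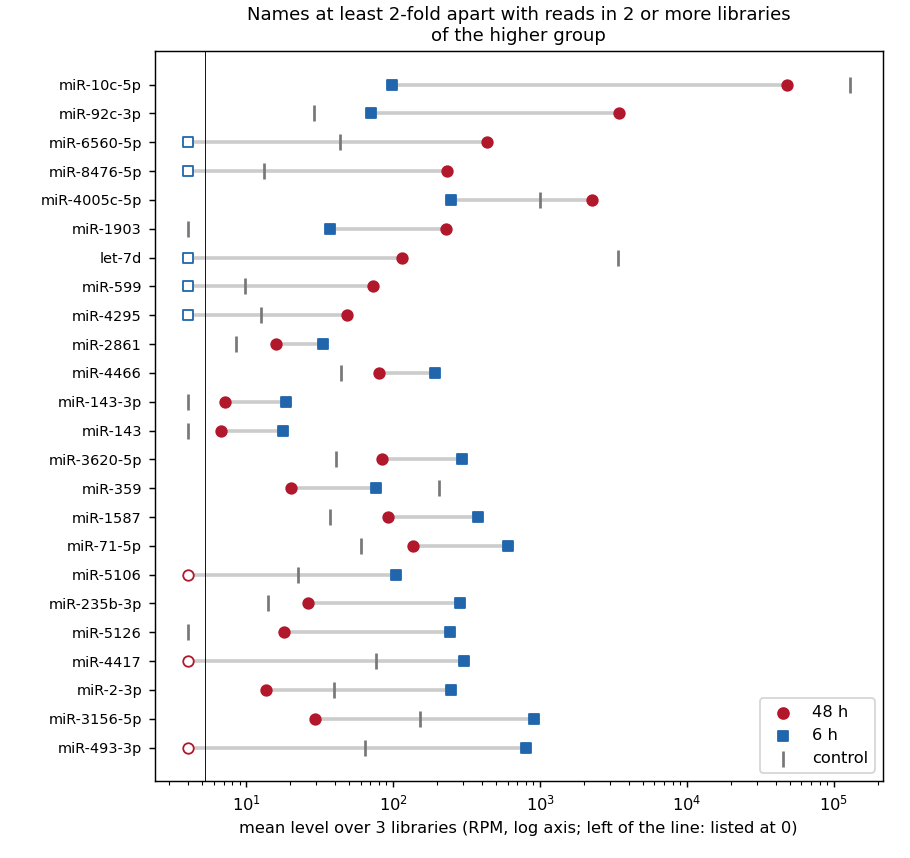
Mean levels at 48 h (red circles), 6 h (blue squares) and in the control (grey ticks), in RPM on a log axis, of the 24 names called apart with 2 or more libraries behind the higher group; open symbols left of the line are listed at 0. The upper 9 names are higher at 48 h, led by miR-10c-5p, and the lower 15 are lower at 48 h, down to miR-493-3p.

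Some of the lower names were set by 1 library at 6 h. miR-3156-5p averaged 29.5 RPM at 48 h, against 904 RPM at 6 h, 30.6-fold lower. At 6 h 2621 to 2653 RPM of it lay in the 96.9 M library and the others averaged 29.6 to 55.5 RPM, so that without that library the 48 h mean was at most 1.88-fold lower. miR-5916 had 1478 RPM in the 113 M library alone at 48 h, against 8219 RPM in the 54.4 M library alone at 6 h, and no listed reads in the control. miR-7471-5p and miR-5358b-5p had none at 48 h, against 1198 and 675 RPM in the 69.3 M library at 6 h. miR-194-5p, abundant in the gut lining of mammals, had 29.6 RPM in the 113 M library at 48 h, against 154.9 RPM in the 69.3 M library at 6 h. Further names of the kind with reads in 1 library at both times were miR-3965, miR-4539, miR-4094-5p, miR-2201-3p, miR-6903-3p and miR-3897-3p, 2.14- to 11.6-fold lower on means. The last 4 of these were under 2-fold with the empty 48 h libraries set to 20 RPM. miR-2981 had 372 RPM in 1 library at 6 h and a 48 h mean of 37.0 RPM, and miR-359 had 207 and 23.0 RPM in 6 h libraries and 60.7 RPM in 1 library at 48 h.

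Of the 14 higher names 9 had reads in 2 or more libraries at 48 h, and of the 26 lower names 15 had reads in 2 or more libraries at 6 h. The columns allow every 48 h library to lie above every 6 h library for 5 of the 14, and the reverse for 9 of the 26. Separation was computed for called names only, so these counts have no share over all names to stand beside. It is not limited to called names. The columns also allow every 6 h library of miR-4009c-3p, which was not called, to hold at least 27.7 RPM, against a listed 0 at 48 h. For the other 9 and 17 called names the libraries of the groups must overlap or lie below 20 RPM together. Complete separation was certain for 0 names in either direction. The 5 were miR-92c-3p, miR-6560-5p, miR-8476-5p, miR-1903 and miR-599, and the 9 were miR-493-3p, miR-2-3p, miR-4417, miR-5126, miR-235b-3p, miR-5106, miR-71-5p, miR-3620-5p and miR-4466.

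Several let-7 and miR-375 names were within 2-fold between the heat times. let-7e averaged 261 RPM at 48 h, against 240.5 RPM at 6 h, a ratio of 1.08, with 93.1 RPM in the control. let-7a-5p averaged 122 RPM at 48 h, against 165 RPM at 6 h, a ratio of 0.74, and let-7b-5p, whose counts were within 15% of it and may be the same reads, had a ratio of 0.76. miR-375-3p, which restrains insulin secretion in mammalian islets, averaged 669 RPM at 48 h, against 722 RPM at 6 h, with 1913 RPM in the control. miR-375, with counts within 15% of it, may be the same reads, and miR-375b-3p averaged 82.5 RPM, against 89.8 RPM. At 48 h the 113 M library held 1134 to 1207 RPM of miR-375-3p and the others averaged at most 446.5 RPM. At 6 h the library with the most held between 740 and 1798 RPM of it, and the others averaged 184 to 713 RPM. Its least coefficient of variation at 6 h, 3.08%, is a lower limit only. A ratio near 1 does not show that animals did not differ.

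Names of other families were also within 2-fold. miR-152b, of the miR-148/152 family, had 88.7 RPM at 48 h, against 95.9 RPM at 6 h, and no listed reads in the control. miR-222-3p, which restrains the cell cycle inhibitor p27 in mammals, had 35.5 RPM, against 37.3 RPM. miR-79-3p, an invertebrate name of the miR-9/79 family, had 42.7 and 41.8 RPM in the 57.2 and 61.9 M libraries at 48 h, against 47.5 and 23.4 RPM in the 54.4 and 96.9 M libraries at 6 h. Of the 24 names with reads in 2 or more libraries at both times, 15 were within 2-fold, 2 were higher at 48 h and 7 lower, with a median log2 ratio of -0.16. Of the 19 names with reads in 1 library at both times, 7 were within 2-fold, 4 higher and 8 lower. Levels at 48 h and 6 h had a Spearman rho of 0.59 over the 55 names and 0.38 over the 24, as a description of names that share libraries.

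The miRNA lists were sparse among the 156 names. The let-7 list, with its nematode relative miR-84, had 7 names, of which let-7d was called higher, against 8.97% of all 156 names, none lower, and miR-84-5p and let-7b-3p had no reads at either heat time. The median log2 ratio of its 4 names with reads at both times was -0.24, against -0.40 over all 55. The 4 miR-375 names, which are also the endocrine and secretory list, had none called and a median of -0.11, which was 0.18 on pooled counts. The echinoderm-named list held miR-2010, at 182.1 RPM at 48 h against 119.9 RPM at 6 h, and miR-2010-3p, whose counts were within 15% of it and may be the same reads, with none called and a median of 0.60. The stress and ageing list held miR-71-5p alone, the miR-2 list miR-2-3p alone and the miR-10 list miR-10c-5p alone. Of the 3 miRNAs predicted by the authors, novel_mir_16 had 12.6 RPM at 48 h, against 14.1 RPM at 6 h, and the others had no reads at either time. miR-33-2-3p and miR-279b-5p had none at either time, and the immune-linked list had 0 names. miR-210a, whose vertebrate relatives respond to low oxygen, had 19.7 RPM at 48 h and none at 6 h, too low to be compared.

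Markers of other cell types gave little signal. In bulk tissue, fewer cells of a type and less RNA per cell cannot be told apart. The muscle list had 4 names, of which miR-143 and miR-143-3p, smooth muscle miRNAs of mammals, had counts within 15% of each other and may be the same reads. With these counted once the means of the list summed to 18.4 RPM at 48 h, 30.4 RPM at 6 h and 9.32 RPM in the control, and the median log2 ratio was -0.72. Counted apart the median was -1.39. Both were called lower at 48 h, against 16.7% of all 156 names, with 20.3 RPM of miR-143 in 1 library at 48 h, against 22.3 and 31.1 RPM in 2 libraries at 6 h, all close to the 20 RPM minimum. That call is lost with the empty libraries set to 20 RPM. miR-206-3p, of vertebrate skeletal muscle, had 11.2 RPM at 48 h, against 11.7 RPM at 6 h, from 1 library each. miR-133-5p was listed at 0 at both heat times. The neural list held miR-9-4-3p alone, at 78.3 RPM in the 113 M library at 48 h and none at 6 h. The sensory and ciliated list held 2 names, miR-263a-3p and miR-96-3p, with no reads at either heat time. The epithelial list and the list of blood cell and vertebrate immune miRNAs had 0 names in both tables, so these 156 names do not allow the intestine label to be checked against markers.

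Most names without reads at either heat time had rested on 1 control library. Of these 76 names, 71 had control reads in 1 library and 5 in 2 or more, with control means from 6.67 to 6756 RPM and a median of 11.8 RPM. miR-84-5p led them, followed by miR-4653-5p with 1056 RPM and miR-9120 with 377 RPM, each from 1 control library. The control library of 91.6 M reads alone held all control reads of 63 of the 156 names, against 12 and 27 for the control libraries of 109 and 144.9 M reads. Among the heat libraries, 13, 11 and 6 names had all their 48 h reads in the libraries of 113, 61.9 and 57.2 M reads. At 6 h the libraries of 54.4, 69.3 and 96.9 M reads held all reads of 19, 12 and 3 names. The deepest library held the most such names at 48 h and the fewest at 6 h.

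**Figure D4:**
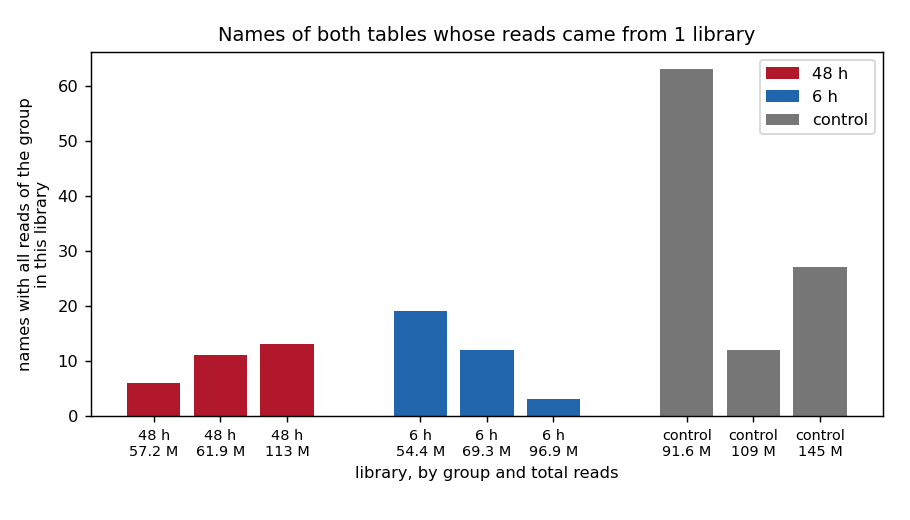
Number of the 156 names whose reads of a group all came from 1 library, for each library at 48 h (red), at 6 h (blue) and in the control (grey), labelled with its total reads. The control library of 91.6 M reads stands out at 63 names, and the heat libraries range from 3 to 19.

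Names listed in both tables differed in kind from those listed in 1. At 48 h 66 of the 156 (42.3%) had reads, against 128 of the 134 names listed at 48 h alone (95.5%). At 6 h 69 of the 156 (44.2%) had reads, against 107 of the 119 names listed at 6 h alone (89.9%). A name with control reads and none at either heat time meets the listing limit in both tables, so the shares follow from how the tables were made and are given as a description.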

How the data were processed

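RNA of 18 to 30 nt from each animal's intestine was sequenced by HiSeq, per the labels' protocols. Trimming, aligner, database, genome build and counting are not given in the sources used. The authors deposited 1 table per heat group, with a read count per miRNA and group, per the file headers, which the values show to be pooled over 3 libraries. The deposited expression values are, tested on the values, mean RPM over 3 libraries with 0.001 for a library at 0. The authors' deposited log2 ratio (heat over control) was used to check the recovered library totals. The ratio of the summed control totals to the summed heat totals matched its scaling within 0.0271% at 48 h and 0.0127% at 6 h. That does not check the total of each library.

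A planned test of values per library across all names was not run, since such values follow from the deposited group values for part of the names. Ratios of mean RPM (48 h over 6 h) were computed instead. A miRNA had its reads in 1 library where count and mean matched a library total within 0.0016 RPM. For the others all splits over libraries at 0 or at least 20 RPM were solved, which gives the ranges printed. The solving step was tested on simulated data, in which all 22 names placed in 1 library were recovered as such in each heat group. The simulation used the recovered totals and the 20 RPM minimum, so it cannot check these. Named miRNAs were the 12 largest ratios per direction among names with reads at both times, the 12 highest with reads at only 1 time, the 10 most abundant, 5 nearest a ratio of 1, those nearest 2-fold, and list members. Other called names were added after their values were seen. The names and lists were chosen with earlier results of these data known. Python 3.11.15 with pandas 2.3.3 and scipy 1.17.1 was used.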

Additional observations from a re-analysis of the deposited data

How the results depend on the processing

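Counts of 14 higher and 26 lower names stayed within 1.5 times under pooled counts, both replacements of a listed 0, the 50 RPM filter, joined names, a 1.5-fold limit and the stricter ratio (13 to 19 higher, 19 to 35 lower). A 4-fold limit left 10 higher and 15 lower. Keeping only names with several libraries behind the higher group left 9 higher and 15 lower, and without the library with the most at most 7 higher and 15 lower. With the lowest ratio after leaving 1 library out of each group, chosen after seeing the data, 3 higher and 3 lower remained. Without the library with the most the limit of the ratio turned for miR-10c-5p (0.79), miR-5916 (24.6), miR-8268-3p (0.52), miR-1791-5p (0.90), miR-3897-3p (5.76), miR-2981 (1.85) and miR-6903-3p (1.28), since 1 library held all or nearly all reads of the higher group. The stricter ratio turned miR-143 (1.13) and miR-143-3p (1.09), whose empty 48 h libraries were set to 20 RPM. On pooled counts 36 of the 40 calls were kept; miR-3897-3p, miR-6903-3p, miR-2861 and miR-4295 were not. Leaving the 5 most abundant out of the totals raised the log2 ratios of names with reads at both times by 0.12 above those of pooled counts and also ended the call of miR-4466 (0.52). The stricter ratio ended 8 calls, among them those of miR-1791-5p (1.94) and miR-2861 (0.68). Counts by where reads were listed moved by at most 4 names. The fold limit, filter and joining do not change a ratio of 1 name. No paired analysis was possible because the columns carry no replicate numbers, and for the same reason no replicate could be left out by name. Levels under 20 RPM in a library are not shown by these tables.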
